A study of Mus musculus with 2 samples.

Results

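The semaphorin, plexin, neuropilin, ephrin, Eph, netrin, Unc5 and Robo genes were examined in the E14.5 cerebral cortex of mouse embryos of the NMRI strain. They were taken as all probe sets with a single platform gene symbol of these families, by symbol pattern, with the brightest probe set standing for each gene. This gave 57 probe sets for 44 of the 8251 genes named on the array. One of the 44, Unc50, matched the pattern by spelling alone: it encodes a membrane protein whose worm counterpart is needed for acetylcholine receptor trafficking, and it is no netrin receptor. It is kept in the counts, which are also given without it. No Slit gene was among the 44, and Slit ligands were not analysed here.

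The study compared wild type with Pax6-/- cortex to find targets of Pax6, a transcription factor of cortical progenitors. Each genotype is represented by 1 array, hybridised with biotinylated cRNA made from 6 microg of total RNA. RNA came from 3 embryos of each genotype, per the series' design text. The labels name neither the mutant allele nor any pooling of embryos. With 1 array per genotype there is no replicate check and no test of any difference, and every value below is a description of these arrays.

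Guidance cues steer growing axons and migrating neurons by attraction or repulsion. Semaphorins signal through plexins, and the secreted class 3 semaphorins mostly bind neuropilins as the ligand-binding partner. Ephrins are bound to the cell surface and activate Eph receptor tyrosine kinases on the neighbouring cell. Netrins act through Dcc and the Unc5 receptors, and Slit proteins through the Robo receptors. In the embryonic cortex these systems guide corticofugal, callosal and thalamocortical axons and position migrating neurons.

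Signals are MAS5 intensities, in arbitrary units, each from 1 array. A log2 ratio is the mutant minus the wild type value of log2(signal + 81.5), centred on the median of all probe sets above a signal filter of about 166. The added constant, 81.5, is the 25th percentile of all signals and shrinks the difference of dim genes. As a yardstick without any variation between embryos, the technical spread, taken between probe sets for 1 gene, was 0.71 (log2 scale) at mean signals below 527, 0.50 up to 949 and 0.44 above that. Median signals were 237.3 (wild type) and 283.7 (mutant). The 3′ to 5′ signal ratio of the beta-actin control was 1.17 for wild type and 1.44 for the mutant, and that of the Gapdh control 0.80 and 0.97. Pax6 itself, measured by 1 probe set, had signals of 1169 and 447, a log2 ratio of −1.29. Its place relative to the mutation is not known, so this value checks the labels only if the probe set lies inside the altered sequence.

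Guidance genes lay on the lower side in the mutant. Of the 44 members, 32 had a log2 ratio below 0 and 12 above, against 48.1% of all named genes below 0. Their median log2 ratio was −0.29, beside 0.02 over all named genes. Without Unc50 the counts were 31 and 12 of 43, and the median was −0.26. Both signals of 6 members were below 81.5, and without centring 29 of the 44 were below 0. Among genes above the signal filter, 21 of 32 members (65.6%) were below 0, beside 51.6% of all such named genes. At least 2-fold lower were 6 of the 44 members, or 13.6%, where 5.72% of all named genes passed that threshold. They were the secreted semaphorins Sema3a and Sema3f, the transmembrane semaphorin Sema6c, the semaphorin receptors Nrp1 and Plxnd1, and the ephrin Efna2. At least 2-fold higher were 0 members, against 6.84% of all named genes; Epha8 was the highest, at 0.85. At 1.5-fold, 13 members including Unc50 were lower and 2 higher, beside 15.4% and 16.2% of all named genes. The signal filter kept 32 members. Of these, 4 had a signal below the filter level on 1 of the arrays, so they passed through the array on which they were brighter.

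**Figure D1:**
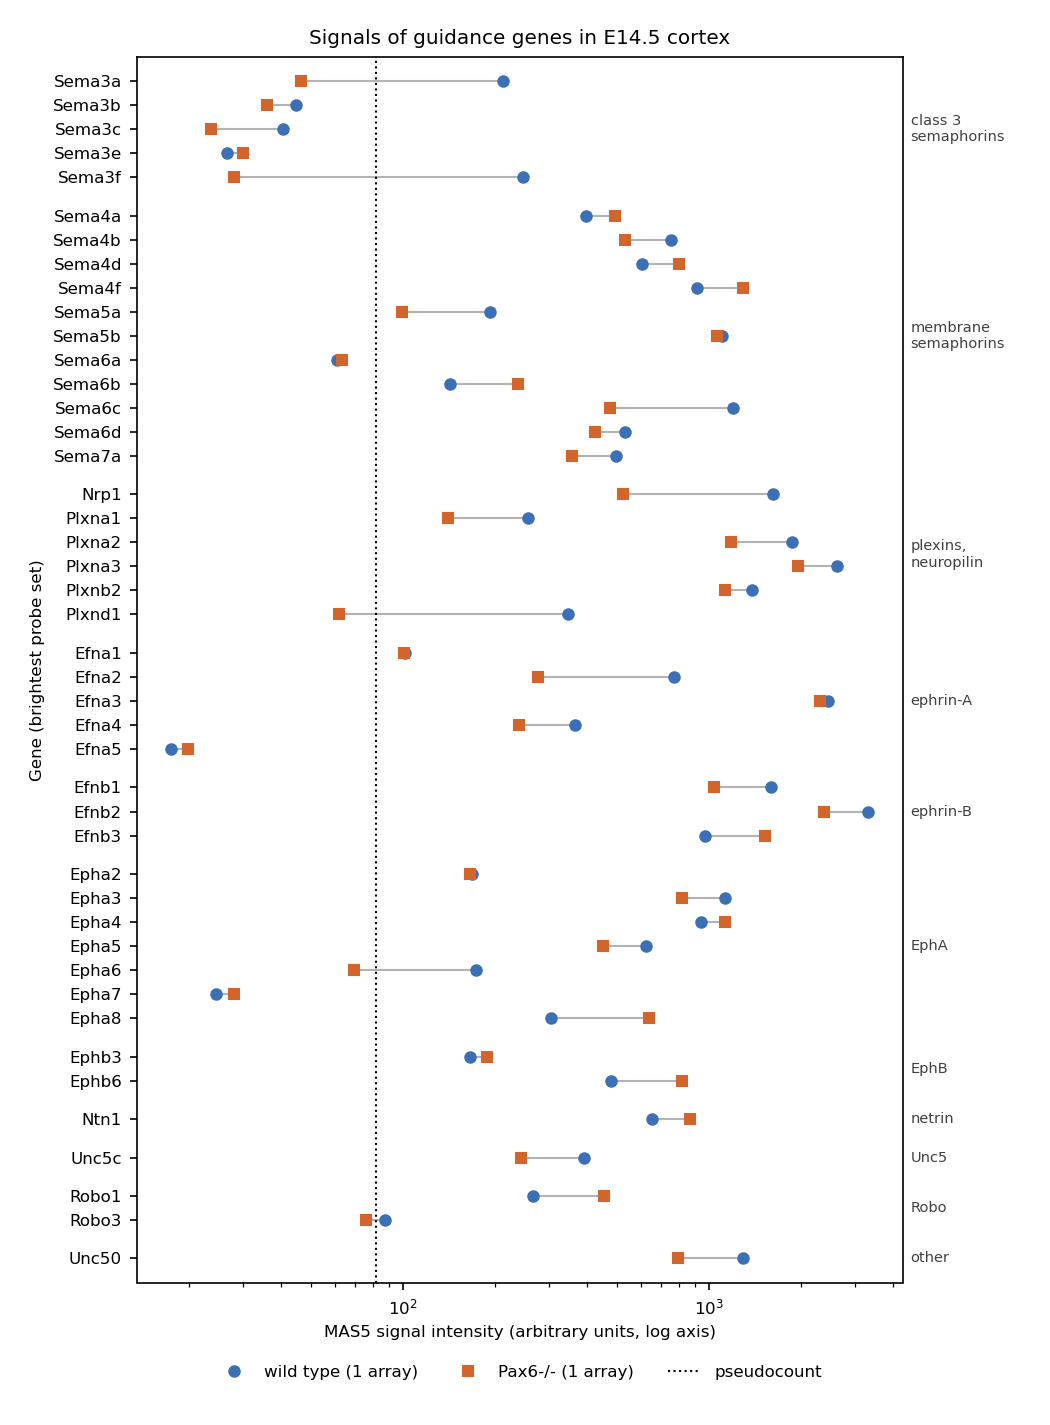
MAS5 signal intensity (arbitrary units, log axis) of the brightest probe set of each of the 44 members, grouped by family, with 1 wild type array (blue circles) and 1 Pax6-/- array (orange squares) joined by a line; the dotted line is the pseudocount of 81.5. All 6 plexins and neuropilins have the mutant point to the left of the wild type point, and the lines of Sema3a, Sema3f, Plxnd1, Epha6 and Robo3 cross the dotted line.

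The log2 ratios of the array shifted with signal level. Over all named genes the median log2 ratio moved from 0.20 in the fourth of 10 equal groups by signal to −0.24 in the brightest. Loess scaling, which removes this trend, brought the median of all named genes to 0 at 2 decimals and left that of the members at −0.27, with 33 of 44 below 0 beside 50.1% of all named genes. The 6 members at least 2-fold lower were also the 6 past that threshold after loess scaling, where 7.27% of all named genes passed it and 5.11% passed on the higher side. Among the 33 members with signals at or above 81.5 on both arrays, 3 were at least 2-fold lower, namely Nrp1, Sema6c and Efna2, beside 4.81% of such genes. The other 3, Sema3a, Sema3f and Plxnd1, had a mutant signal below 81.5, so the size of their ratio rests on the pseudocount.

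**Figure D2:**
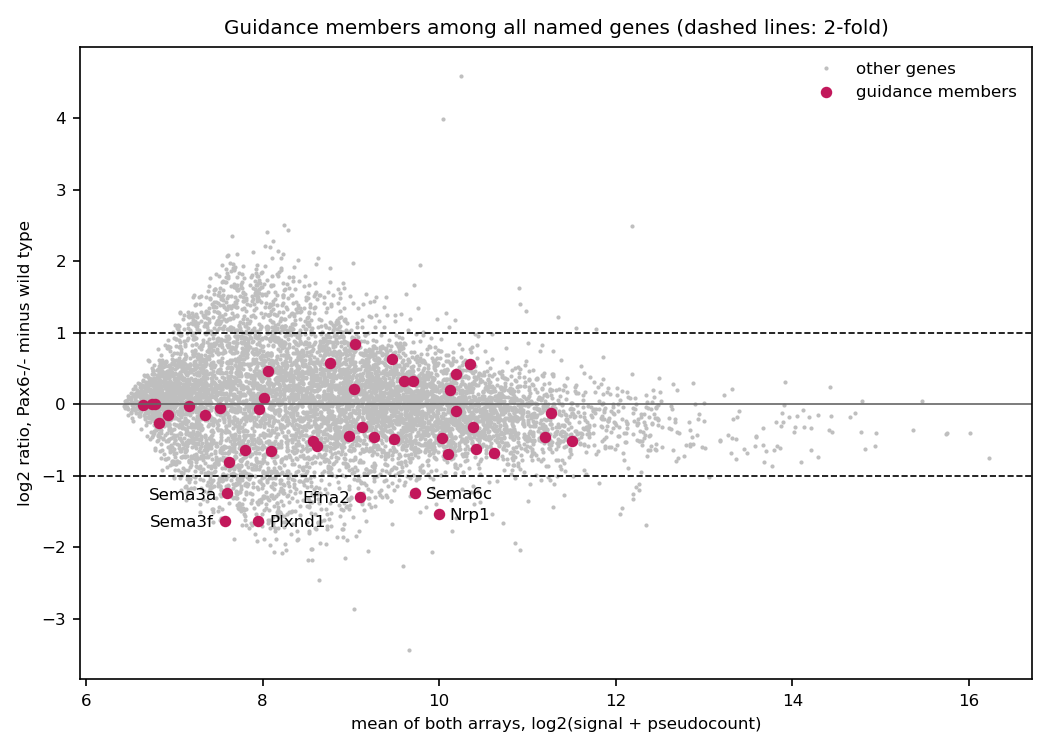
log2 ratio (Pax6-/- minus wild type) against the mean log2(signal + pseudocount) of both arrays for the 44 members (magenta) and all other named genes (grey), 1 array per genotype, with dashed lines at 2-fold. The 6 named members lie below the lower dashed line and 0 members lie above the upper one; Sema3a, Sema3f and Plxnd1 sit at low mean signal, where the grey points also spread widely.

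Among the secreted class 3 semaphorins, Sema3a and Sema3f were lower in the mutant. Sema3a, a repellent for cortical axons that also orients cortical dendrites, gave 212 on the wild type and 46.4 on the mutant array. Its log2 ratio was −1.25, a 2.37-fold difference after the pseudocount and centring. Sema3f, a repellent that acts through the neuropilin Nrp2, had signals of 248 and 28.0 and a log2 ratio of −1.63. Each was measured by 1 probe set, and each lay below the signal filter in its mean. Over 7 other ways of computing the ratio, Sema3a ran from −2.25 to −0.66 and Sema3f from −3.20 to −0.86. The other three, Sema3b, Sema3c and Sema3e, had signals of 23.7 to 44.9 on both arrays, all below the pseudocount, and no direction is drawn from them.

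Among the plexins and neuropilins, Nrp1 and Plxnd1 were at least 2-fold lower, 2 of the 6 measured. The brightest probe sets of all 6 had a log2 ratio below 0, with a median of −0.67, and this sign held without centring and with quantile and loess scaling. Nrp1, which binds Sema3a and also vascular endothelial growth factor, gave 1624 on the wild type and 526 on the mutant array. After the pseudocount and centring this is a 2.90-fold difference, with a log2 ratio of −1.53 where the technical spread is 0.44. The other Nrp1 probe set was dim on both arrays, at 138 and 158, and gave 0.08. The mean of both probe sets was −0.73, short of 2-fold, so the Nrp1 difference rests on the brighter probe set. Plxnd1, the receptor of Sema3e and a gene of both neurons and blood vessels, had signals of 347 and 61.7, a log2 ratio of −1.63 where the spread is 0.71. Over the 7 other computations it ran from −2.54 to −0.96.

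The class A plexins, which transduce class 3 semaphorin signals together with neuropilins and also bind class 6 semaphorins, were lower by smaller amounts. Plxna2 had signals of 1880 and 1181, a log2 ratio of −0.68, larger than the technical spread of 0.44. Plxna3 had signals of 2629 and 1956 and a log2 ratio of −0.46, close to that spread, which loess and quantile scaling brought to −0.27 and −0.28. The remaining members of the group, Plxna1 and Plxnb2, are named only to complete it. They were at −0.65 and −0.32, both within their technical spreads of 0.71 and 0.44. Loess and quantile scaling brought Plxna1 to −0.83 and −0.81, past 0.71, and Plxnb2 to −0.22 and −0.25. A second Plxnb2 probe set was at −0.06. In bulk tissue, fewer cells expressing a gene and less of its RNA per cell cannot be told apart.

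The upstream sequences of 5 of the 6 members at least 2-fold lower are given to show what letters these windows hold. Each line holds the 250 bases before the annotated start, 5′ to 3′ on the gene's strand, from RefSeq on GRCm38.p6. Capitals mark E-boxes, the CANNTG motif bound by basic helix-loop-helix factors such as Neurog2, searched on both strands. The windows are chr5:13396534-13396783 on the plus strand for Sema3a, chr8:128358823-128359072 on the plus strand for Nrp1, chr6:115995006-115995255 on the minus strand for Plxnd1, chr10:80179232-80179481 on the plus strand for the ephrin Efna2 and chr3:95164089-95164338 on the plus strand for the Sema6c start that has E-boxes.
Sema3a: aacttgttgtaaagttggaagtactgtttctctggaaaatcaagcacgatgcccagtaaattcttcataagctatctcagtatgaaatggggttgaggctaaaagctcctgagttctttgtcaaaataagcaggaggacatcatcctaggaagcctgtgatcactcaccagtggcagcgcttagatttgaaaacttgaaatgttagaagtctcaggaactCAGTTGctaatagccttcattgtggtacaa
Nrp1: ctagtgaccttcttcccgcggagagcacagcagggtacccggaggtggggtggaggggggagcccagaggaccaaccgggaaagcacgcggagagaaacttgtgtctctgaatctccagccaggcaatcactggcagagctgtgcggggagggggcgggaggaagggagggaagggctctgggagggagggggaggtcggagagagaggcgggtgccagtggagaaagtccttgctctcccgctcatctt
Plxnd1: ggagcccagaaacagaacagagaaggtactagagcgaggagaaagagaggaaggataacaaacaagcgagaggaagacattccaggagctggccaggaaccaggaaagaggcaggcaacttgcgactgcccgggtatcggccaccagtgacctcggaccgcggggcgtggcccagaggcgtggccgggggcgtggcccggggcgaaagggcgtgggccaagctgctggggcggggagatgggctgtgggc
Efna2: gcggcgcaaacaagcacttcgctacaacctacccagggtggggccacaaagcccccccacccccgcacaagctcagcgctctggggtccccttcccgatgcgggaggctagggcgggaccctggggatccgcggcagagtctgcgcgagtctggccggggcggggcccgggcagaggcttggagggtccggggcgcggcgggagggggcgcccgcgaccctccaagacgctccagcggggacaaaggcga
Sema6c: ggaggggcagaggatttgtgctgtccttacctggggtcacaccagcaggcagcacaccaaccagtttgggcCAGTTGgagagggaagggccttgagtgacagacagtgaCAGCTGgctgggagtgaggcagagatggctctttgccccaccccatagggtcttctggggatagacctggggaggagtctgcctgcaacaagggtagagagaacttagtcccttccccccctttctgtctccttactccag

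The table of upstream sequences held 38 of the 44 members, including 5 of the 6 at least 2-fold lower; Sema3f was not matched. An E-box lay in the window of 19 of the 38 members, against 69.3% of 27025 genes. Of those 5, Sema3a had 1 E-box, starting 30 bases before the start, and Sema6c had 2 at 1 of its annotated starts, while the windows of Nrp1, Plxnd1 and Efna2 held no CANNTG. The Pax6 paired-domain core TTCACGC was found in 1 of 38 members, Unc50, and in 1.22% of all genes. The windows of the members were rich in G and C, with a median of 64.0% against 52.4% over all promoters and 16 CG dinucleotides against 6. The Sema3a window differed from this, with 40.8% G and C and 2 CG dinucleotides, whereas Efna2 had 73.6% and 25. The printed Sema6c window had 58.4% and 0 CG dinucleotides. The window of the other Sema6c start, without an E-box and not printed, had 57.6% and 15. These matches describe letters in a short window and say nothing of binding.

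The membrane-bound semaphorins were mixed: 7 of 11 had a log2 ratio below 0 and 4 above, with a median of −0.10. Sema6c, a transmembrane semaphorin, stood apart with signals of 1201 and 477, a log2 ratio of −1.24 against a spread of 0.50. It was past 2-fold in each of the 6 other computations that measured it; its only probe set carries the suffix for an incomplete set, so it dropped out when suffixed probe sets were left out. Sema6b, its close relative, was at 0.47, with signals of 142 and 238. Sema4f was at 0.42, from 918 to 1294. Without centring and with quantile and loess scaling, Sema6b and Sema4f kept this direction. Sema4b could not be given a direction: its 3 probe sets, all above the filter, were at −0.49, 0.20 and 1.07, and the last had signals of 167 and 458. The other 7, Sema4a, Sema4d, Sema5a, Sema5b, Sema6a, Sema6d and Sema7a, ranged from −0.65 to 0.32, and the probe sets of the GPI-anchored Sema7a disagreed, at −0.44 and 0.50.

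**Figure D3:**
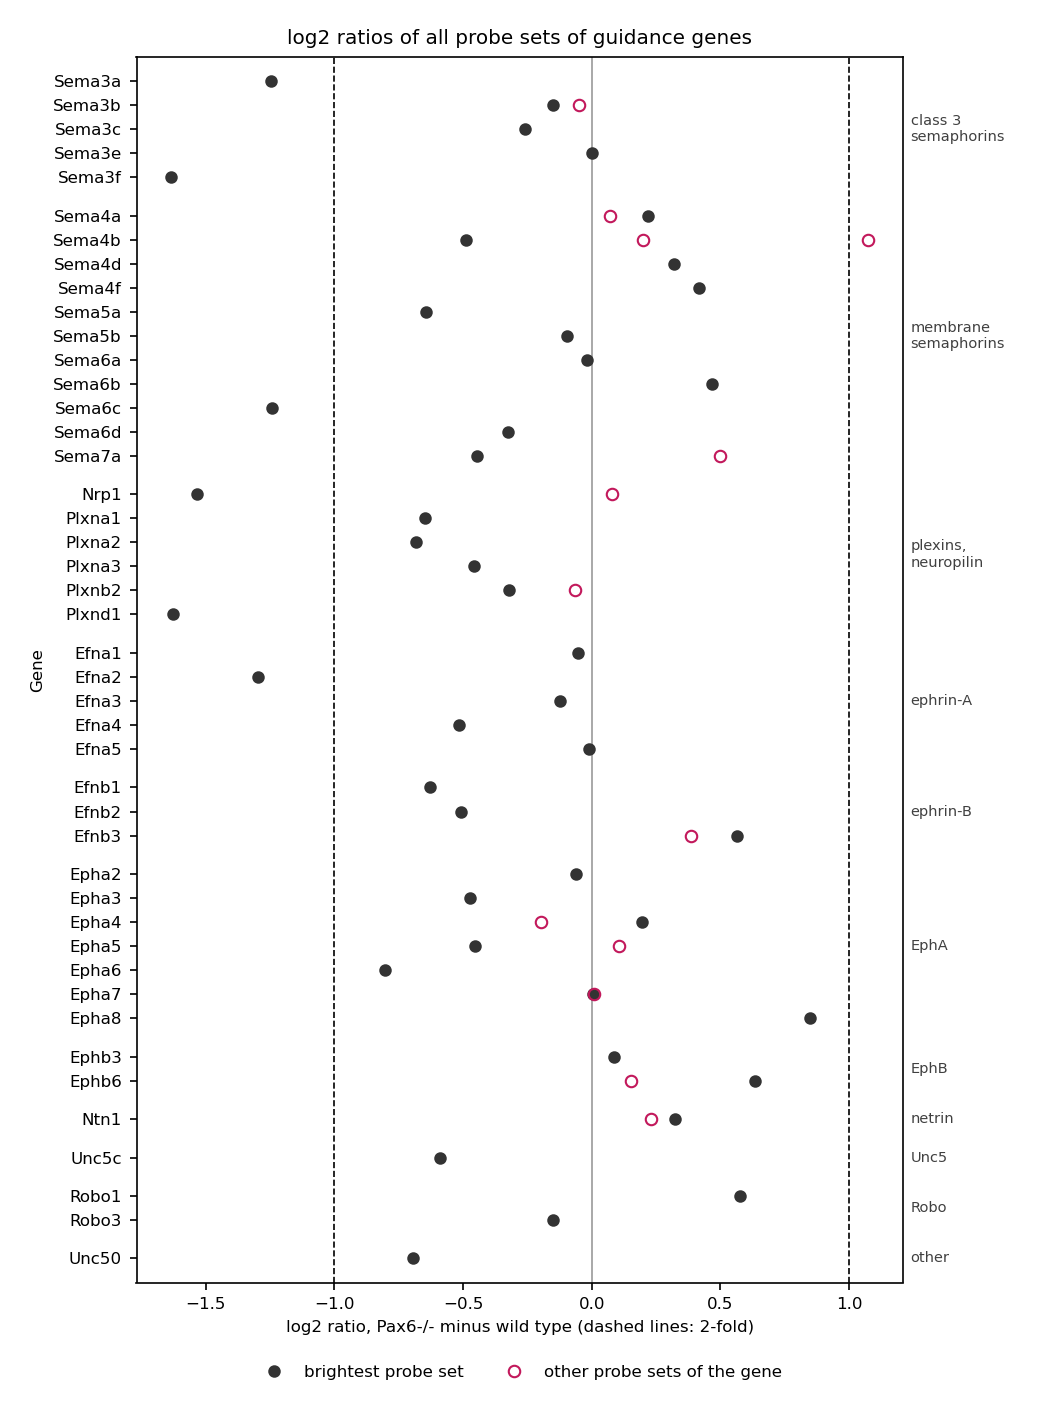
log2 ratio (Pax6-/- minus wild type) of all 57 probe sets of the 44 members, grouped by family, with filled points for the brightest probe set of a gene, open points for its other probe sets and dashed lines at 2-fold. Of the 12 genes with more than 1 probe set, 5 have points on both sides of 0, among them Nrp1 at −1.53 and 0.08 and Sema4b from −0.49 to 1.07.

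Among the ephrins, Efna2 was the one member past 2-fold. Efna2, a GPI-anchored ligand of EphA receptors, gave 769 on the wild type and 276 on the mutant array. The difference of Efna2 was 2.45-fold after the pseudocount and centring. Its log2 ratio of −1.30 compares with a technical spread of 0.71, and it ran from −1.53 to −0.98 over the 7 other computations. Efna4 was at −0.51, with signals of 364 and 241. Efna3 had nearly equal signals of 2449 and 2314, and its log2 ratio of −0.12 turned to 0.07 with loess and 0.06 with quantile scaling. Efna1 and Efna5 were dim, at signals of 102 and 101 and of 17.5 and 19.9.

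The transmembrane B-class ephrins, which signal both forward into Eph-bearing cells and back into their own, went different ways. Efnb1 was at −0.63, with signals of 1596 and 1038, and Efnb2, a gene of cortical progenitors and arterial vessels, was at −0.51, with 3324 and 2389. Their technical spread is 0.44, and loess scaling reduced them to −0.52 and −0.29. Efnb3, known as a midline barrier to axons, was higher, from 973 to 1526, a log2 ratio of 0.56. Its second probe set had signals of 1042 and 1434 and gave 0.39, so both Efnb3 probe sets lay above 0.

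Of the 9 Eph receptors, 4 had a log2 ratio below 0 and 5 above, with a median of 0.00. After loess scaling 6 were below 0 and the median was −0.09, beside 6 of 8 ephrins, and the difference between receptors and ligands was not tested. No Eph receptor was 2-fold apart. Epha8 had signals of 305 and 637, a log2 ratio of 0.85 against a spread of 0.71. Without a pseudocount Epha8 passed 2-fold on the higher side and Epha6 on the lower. Ephb6, a receptor whose kinase is inactive, was at 0.63, with 479 and 816, from a probe set with a suffix. Its other probe set, without a suffix, had signals of 568 and 665 and gave 0.15. Ephb3 was at 0.09 and turned to −0.09 under quantile and loess scaling.

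The EphA receptors of the cortex were within their spread or close to it. Epha3 had signals of 1134 and 821 and a log2 ratio of −0.47, just past its technical spread of 0.44. Epha5 was at −0.45, from 624 to 451, with a dimmer probe set at 0.11. Epha4, which binds ephrins of both classes, was at 0.19, from 947 to 1134, and its dimmer probe set was at −0.20. The remaining 3 receptors were dim: Epha2 had nearly equal signals of 169 and 166, Epha7 of 24.5 and 28.1, and Epha6 had 174 and 69.5, a log2 ratio of −0.80, or −1.37 without a pseudocount.

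The netrin and Robo genes were few on this array. Ntn1, the netrin that attracts axons through Dcc and repels them through Unc5 receptors, had signals of 653 and 867 and a log2 ratio of 0.32. Its second, dim probe set gave 0.23. Unc5c, which turns the netrin response to repulsion, was at −0.59, with 392 and 243, within a technical spread of 0.71. Loess and quantile scaling brought Unc5c to −0.74 and −0.72, just past that spread. Robo1, a Slit receptor of callosal and corticofugal axons, was at 0.58, with 268 and 456, also within 0.71. Robo3 had signals of 87.5 and 75.7, near the pseudocount. Unc50, the gene matched by spelling, was at −0.70, with 1295 and 796.

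**Figure D4:**
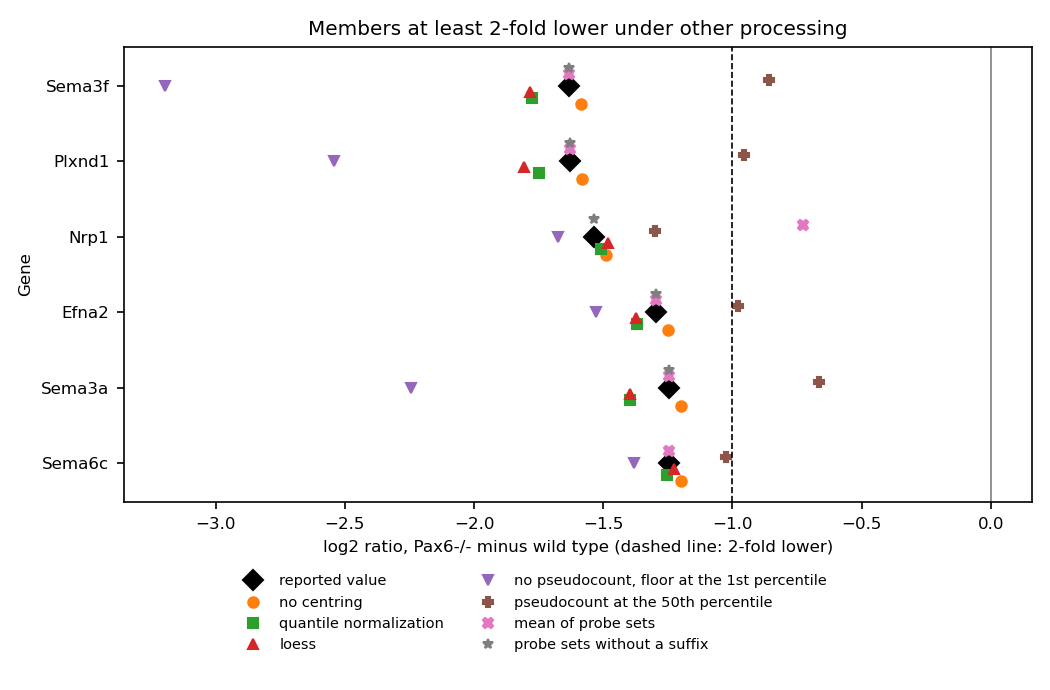
log2 ratio (Pax6-/- minus wild type) of the 6 members at least 2-fold lower, as reported (black diamonds) and under 7 other ways of computing it (coloured symbols), with the dashed line at 2-fold lower. All points lie left of 0; with the pseudocount at the 50th percentile only Nrp1 and Sema6c stay past 2-fold, and the mean of the Nrp1 probe sets is −0.73.

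Other genes of these pathways were read from lists of co-receptors and of intracellular effectors. Of the 18 measured co-receptors and cofactors, 11 had a log2 ratio below 0 and 7 above, beside 48.1% of all named genes below 0. Their median was −0.42. On the lower side 4 of the 18 passed 2-fold and on the higher side 1, beside 5.72% and 6.84% of all named genes. A signal below 81.5 on at least 1 array was found for 5 of the 18. Dcc, the attractive netrin receptor, had signals of 526 and 184, and L1cam, an adhesion molecule that partners Nrp1 in the Sema3a receptor, had 710 and 98.2. Nrcam, a partner of neuropilins, had signals of 552 and 245, and Chl1, a relative of L1cam, was at −1.91 with a mutant signal of 46.7, below the filter in its mean. Hs2st1, a heparan sulfate sulfotransferase, was higher, from 153 to 460, a log2 ratio of 1.16 that was 0.99 after loess scaling. Itgb1 and Gpc1 were at −0.48 and −0.55, and Neo1, a relative of Dcc, at 0.04, or −0.04 after loess scaling. Ntn1 lay above 0 and Dcc and Unc5c below it, while Neo1 changed side with the scaling. Sema3a, Nrp1, L1cam and Plxna2 lay below 0. Of these, Sema3a was below the filter in its mean, and the dimmer Nrp1 probe set was at 0.08. These genes were picked from their pathways, and other pathway genes went both ways.

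Of the 37 measured intracellular effectors, 24 had a log2 ratio below 0 and 13 above, beside 48.1% of all named genes below 0. The effector median was −0.26, or −0.15 after loess scaling. Crmp1, a mediator of Sema3a signalling, was at −0.43 and Cfl1, an actin-severing protein, at −0.44, and loess scaling brought these to −0.15 and −0.11. Other effectors above the filter went both ways. As examples, Dpysl2 was at 0.38, Limk1 at 0.53 and Fes at 0.67, while Dpysl4 was at −0.18 and Fyn at −0.74. Larger differences, such as Rhoa at −0.92 and Ptpn13 at 0.81, also went both ways. Rac1 was at −0.26 and turned to 0.01 after loess scaling.

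Markers of the cells in the dissection were read on the same arrays. Of 8251 named genes, 3967 were lower and 4283 higher, or 4131 and 4120 after loess scaling. The endothelial, meningeal, microglial and red cell counts below lay near these shares. Of 9 measured cortical markers, all above the filter, 9 of 9 were lower in the mutant, with a median of −0.97 and a summed signal of 29686 on the wild type and 16257 on the mutant array. The cortical median was −0.86 after loess scaling. Eomes, of intermediate progenitors, was at −3.44 and Neurog2, a proneural factor, at −1.94. The cortical markers differed in size: Nfia was at −0.16, Fezf2 at −0.39 and Nfib at −0.51, each −0.18 after loess scaling. Subpallial markers summed to 2731 and 13947, with 14 of 17 higher and a median of 0.17, or 9 of 17 and 0.05 after loess scaling. Dlx1 was at 4.59 and Dlx2 at 3.99, and the other 15 summed to 2391 and 3785. On the lower side were Meis2, below the filter, at −1.23, Lhx6 at −0.68 and Foxp1 at −0.53. Endothelial markers, relevant to Nrp1, Plxnd1 and Efnb2, were higher in 6 of 11, with a median of 0.37 (0.20 after loess scaling) and summed signals of 2048 and 2491. Only 4 of the 11 were above the filter, and they went both ways: Cldn5 was at 1.06, Flt1 at 0.78, Kdr at −0.004 and Eng at −0.96. The defining genes Pecam1 and Cdh5, both below the filter, had signals of 121 and 189 and of 27.5 and 65.7. Meningeal markers were higher in 9 of 15 (8 of 15 after loess scaling), with summed signals of 7853 and 8076, Twist2 at 1.52 and Igf2 at −1.04. Microglial markers were higher in 6 of 10, with summed signals of 2317 and 3765, Csf1r at 1.54 and Laptm5 at −1.36; their median of 0.11 was −0.03 after loess scaling. Red cell markers were higher in 3 of 7, with summed signals of 16730 and 14308, Hbb-y at −0.63 and Klf1 at 0.56. The part of these markers in the values of the guidance genes was not tested.

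**Figure D5:**
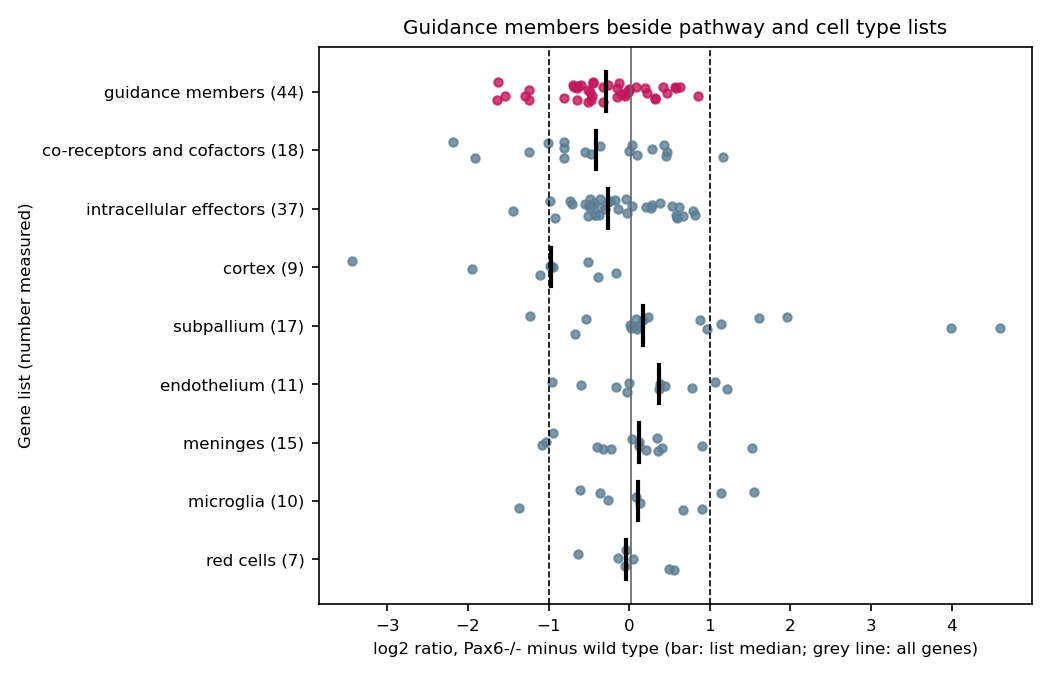
log2 ratio (Pax6-/- minus wild type) of each measured gene in the guidance families, the 2 pathway lists and 6 cell type lists, with the number measured in parentheses, black bars at list medians, the grey line at the median of all named genes and dashed lines at 2-fold. The guidance members (median −0.29) lie between the cortical markers (−0.97) and the subpallial and endothelial markers (0.17 and 0.37).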

How the data were processed

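Total RNA from E14.5 cerebral cortex was measured on 1 Affymetrix array per genotype. The authors deposited signal intensities on a linear scale, per the submitters' processing notes from MAS5, the Affymetrix signal algorithm. No version, target for scaling or detection call was given in these sources. The arrays' number limits the precision of every value. Of 12488 probe sets, 66 are controls; 396 carried several gene symbols and 1237 none, and no gene was named from those. All 44 members matched the RefSeq gene table (GRCm38.p6) by gene ID.

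The log2 ratio of signals was computed with a pseudocount of 81.5 and centred by removing a shift of 0.05. The signal filter is the 40th percentile of mean log2 values. Counts use all members, because a filter on mean signal passes some members only through their brighter array. The technical spread is the SD of the difference between the 2 brightest probe sets of 894 genes, divided by the square root of 2. No test was possible. The members, lists and thresholds were chosen with earlier results of these data known. Named members are those at least 2-fold apart, the 3 with the largest difference above the filter and the brightest in each family, and those with probe sets of opposite sign; pathway genes are those 2-fold apart and the 3 brightest, and markers the 2 with the largest difference. Other genes with values, such as Plxna1, Chl1, Pecam1 and Cdh5, only complete their group. The effectors Dpysl2, Limk1, Fes, Dpysl4, Fyn, Rhoa and Ptpn13 are examples given outside this rule. The value of 1 intracellular effector is not reported here.

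The alternatives were to omit the centring, to scale by quantiles or by loess (fraction 0.4, 3 iterations), to omit the pseudocount (floor at the 1st percentile), to set it at the 50th percentile, filters at the 40th and 60th percentile, the mean of probe sets, unsuffixed probe sets, and thresholds of 1.5-fold and 3-fold. Leaving out Unc50 and asking for both signals at or above the pseudocount were chosen after seeing the data. The steps were tested on simulated data with Python 3.11.15, numpy 2.4.6, pandas 2.3.3, statsmodels 0.14.6 and matplotlib 3.10.9.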

Additional observations from a re-analysis of the deposited data

How the results depend on the processing

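The number of members at least 2-fold lower was 6 as reported, and also 6 without centring and with quantile or loess scaling. It was 2 of 44 with the 50th-percentile pseudocount (Nrp1 and Sema6c), where 1.56% of all named genes passed, 3 of 24 with the 60th-percentile filter (3.41%) and 3 of 33 with both signals at or above the pseudocount (4.81%). It was 13 at 1.5-fold (15.4%) and 2 at 3-fold (1.02%). Without a pseudocount 8 members were lower, Epha6 and Sema5a being added, and 1 higher (Epha8), where 11.4% and 15.6% of all named genes passed. The number higher was 2 at 1.5-fold (Epha8 and Ephb6; 16.2%) and 0 under the other alternatives. The median of the members was −0.18 with the 50th-percentile pseudocount and −0.14 with the mean of probe sets, and between −0.38 and −0.25 otherwise. The 50th-percentile pseudocount shrinks every dim ratio by construction; for the mean of probe sets the cause was not tested. The medians of the co-receptor and effector lists stayed below 0 under all alternatives run. Counting only values that an alternative changed, 130 of 138 values of named members and Pax6 moved by less than 0.56, the technical spread over all signal levels. The other 8 moved further and 0 reversed a 2-fold difference. These 8 values belonged to Nrp1, Plxnd1, Sema3a and Sema3f, all at least 2-fold lower as reported, and to Sema4b. Omitting the centring shifts every ratio by 0.05 alone, so its values could not move further by construction. Reversal was counted only for values past 2-fold. Of the named members within 2-fold, Efna3, Epha4, Ephb3 and Sema4b changed sign under some alternatives. Among the other members, Efna5, Epha7, Sema3e, Sema6a and Sema7a did so too. No paired analysis was possible because each genotype has 1 array, and no array could be left out. Ratios with a signal below 81.5 on either array are limited by signal over background.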
